A study of Mus musculus with 2 samples.

Results

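Autophagy and lysosome genes were followed as a set of 53 named mouse genes, of which 51 could be matched to probe sets annotated to that gene alone, out of 18193 genes measured in this way. The set holds 27 genes of the autophagy machinery (26 matched), 15 lysosomal enzymes (all matched), 8 lysosomal membrane and transport proteins (7 matched) and the 3 MiT transcription factors Tfeb, Tfe3 and Mitf. Optn and Cd63 were not analysed here. The matched genes were read by 117 probe sets.

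The study measured 1 Mof null (MOF-/-) and 1 wild type (MOF +/+) culture of embryonic stem cells, each on 1 array. Mof, also called Kat8, is an acetyltransferase of histone H4. Both lines are of strain C57BL/6, were derived from embryos of day 3.5 post coitum and were at passage 15 to 18. Both had been grown on embryonic fibroblast feeders with LIF and then kept for 2 passages off the feeders before RNA was taken. The labels do not state how the null allele was made, and neither group has a second line, clone or culture. No difference below therefore has a replicate error or a test, and genes are counted by a fixed rule of size, a difference of at least 2-fold (1 log2 unit).

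In autophagy a double membrane grows around a portion of the cytoplasm, closes into a vesicle and fuses with the lysosome, where acid hydrolases break the content down. Embryonic stem cells use the route to turn over proteins and mitochondria during self-renewal and at the exit from it. Tfeb, Tfe3 and Mitf are helix-loop-helix factors that bind E-box sequences in the promoters of many lysosomal and some autophagy genes, and the nutrient-sensing kinase complex mTORC1 at the lysosome surface keeps them in the cytoplasm.

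Values are log2 RMA values of each gene's brightest probe set (by its mean), and differences are Mof null minus wild type. Genes with a value of at least 6.02, the median of the whole table, on either array are called expressed, which held for 12015 genes. All 51 members reached it on both arrays, so none passed through 1 array alone. The arrays had medians of 6.01 (Mof null) and 6.02 (wild type). Kat8 itself was read by 1 probe set whose place relative to the deletion is not given. It was at 8.37 on the array labelled Mof null and 8.06 on that labelled wild type. These values do not bear out the labels, and without the place of the probe set they cannot check them. The text therefore speaks of labelled arrays. The 20 pluripotency markers were all expressed on both arrays, and each had its higher value under the Mof null label (median difference 0.59).

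Of the 51 members, 10 were lower by 2-fold or more under the Mof null label and 1, Ctsh, was higher by as much. The shares over all expressed genes were 11.9% lower and 5.09% higher. Past 1.5-fold, 18 members were lower and 2 higher, with shares of 19.2% and 17.3% over all expressed genes. A difference below 0 was seen in 33 members (64.7%), against 43% of all expressed genes, and the median difference of the members was -0.30, against 0.10 for all expressed genes. Differences taken relative to the pluripotency markers turned 16 of the 18 members above 0 to below it, all but Ctsh and Neu1. That scaling takes 0.59 from every gene, which puts the median of all expressed genes at -0.49. Every gene between 0 and 0.59 therefore turns, and none below 0 can. The share of all expressed genes that turned was not computed. The 10 lower genes were Ulk2, Rb1cc1, Wipi1, Gabarap and Gabarapl1 of the autophagy machinery, the enzyme genes Ctsb, Ctsf, Ctsk and Gusb, and the membrane protein gene Lamp2.

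Markers of other cells moved on the same pair of arrays. The marker lists, that of pluripotency included, were chosen with earlier results of these data known. All 21 measured fibroblast markers were lower on the array labelled Mof null, 19 of them at least 2-fold, with a median of -1.93, and their summed linear level was 47967 there and 137730 on the array labelled wild type. All 18 macrophage markers were lower too, and 15 of the 17 expressed ones were lower by at least 2-fold, with a median of -2.05 and summed linear levels of 5366 (Mof null) and 18722 (wild type). Fibroblast markers above the expression level numbered 21 on each array, and macrophage markers 14 (Mof null) and 17 (wild type) of 18. Ptprc (CD45), the marker common to blood cells, had 5.33 on the array labelled Mof null and 8.10 on that labelled wild type, Itgam and Cd52 were likewise under the expression level with the Mof null label alone, and Aif1 was under it on both. Visceral endoderm markers went the other way, with 9 of 15 expressed ones at least 2-fold higher and a median of 1.04; Rbp4, Hnf4a and Apoa1 among the 9 reached the expression level only on the array labelled Mof null. The part of these cells in the values below was not tested, and in such bulk RNA fewer cells of a type and less RNA per cell cannot be told apart.

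**Figure D1:**
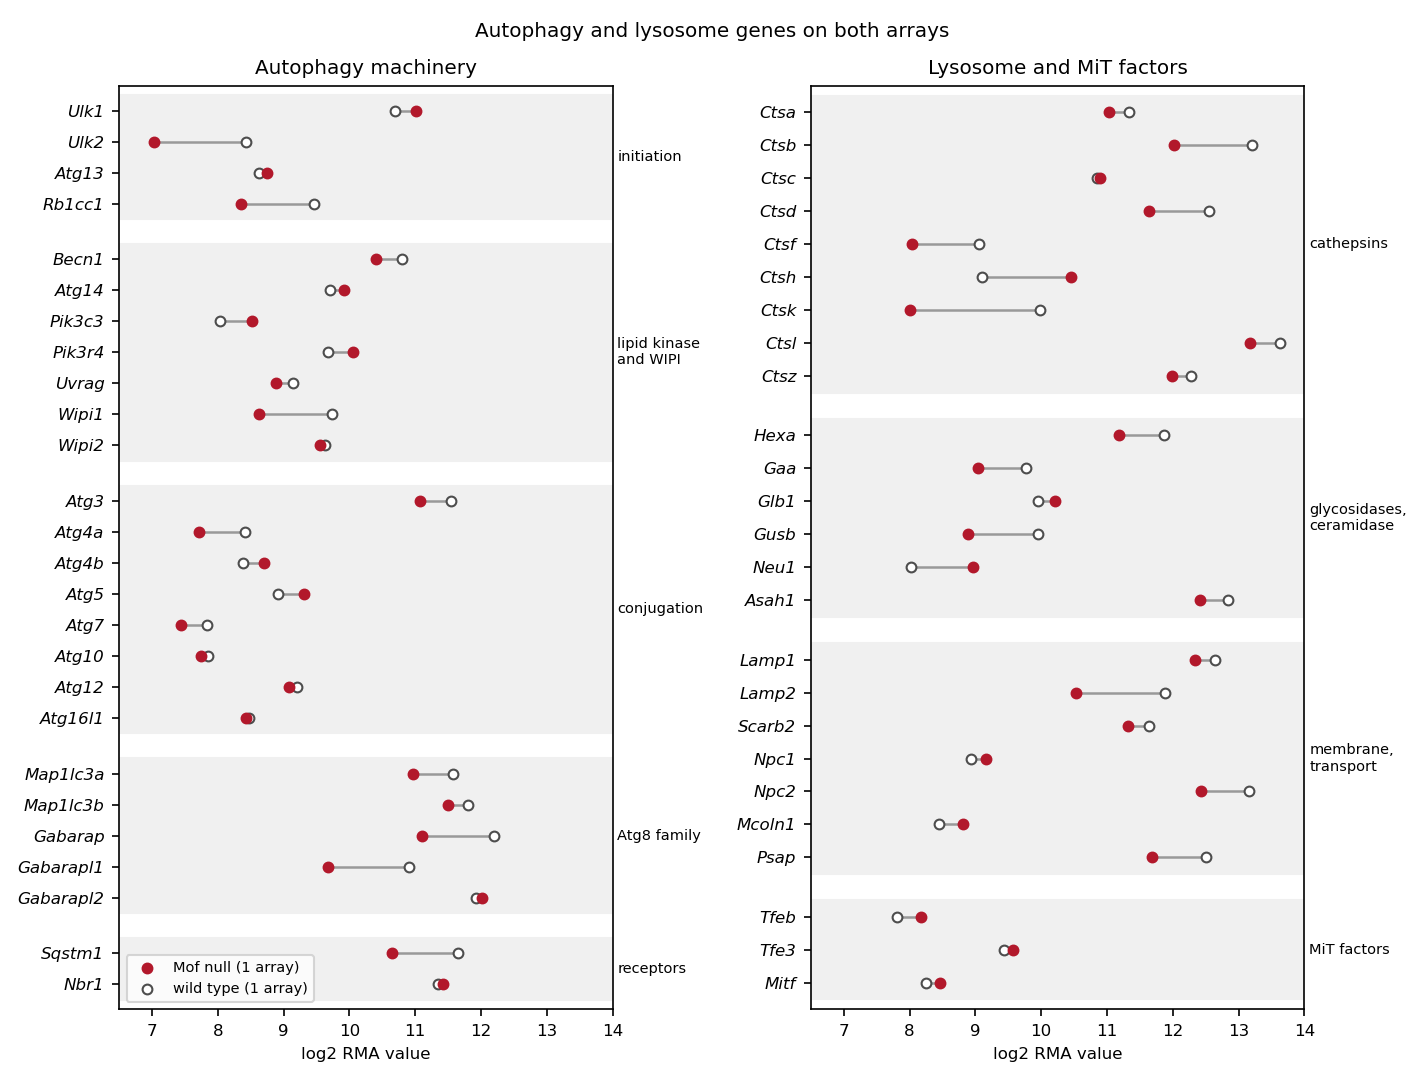
Log2 RMA value (x axis) of each member on the array labelled Mof null (filled) and on the array labelled wild type (open), 1 array each, with genes grouped by role and a line joining the values of a gene. Levels are not comparable between genes. Long lines to the left are those of Ulk2, Lamp2 and Ctsk, and the longest line to the right is that of Ctsh.

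Single genes of several steps of autophagy were lower under the Mof null label, and none was higher by 2-fold. Of 26 expressed machinery genes 5 were at least 2-fold lower (19.2%, against 11.9% of all expressed genes) and 17 lay below 0 (65.4%, against 43%). The 26 had a median of -0.19 and a range from -1.41 to 0.49.

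The initiation complex was split. Ulk1 and Ulk2 are the kinases that start autophagosome formation, and Atg13 and Rb1cc1 (FIP200) are their scaffold. Ulk1 had 11.02 on the array labelled Mof null and 10.69 on that labelled wild type, a difference of 0.33 on probe set 1448370_at, and its second probe set differed by 0.70. Its paralogue Ulk2 had 7.02 with the Mof null label and 8.43 with the wild type label, 2.66-fold lower on probe set 1417847_at. The kinases thus lay on opposite sides of 0 on each of their expressed probe sets as deposited. Those of Ulk2 ran from -1.41 to -0.50. At 0.33, under the 0.59 of the pluripotency markers, the brightest Ulk1 probe set falls below 0 relative to them. Rb1cc1 was at 8.36 (Mof null) and 9.46 (wild type), 2.15-fold lower, while a second probe set differed by -0.41. With the mean of all their probe sets, which takes in those under the expression level, Ulk2 and Rb1cc1 no longer passed 2-fold. Atg13 was at 8.75 (Mof null) and 8.63 (wild type), and both of its expressed probe sets differed by 0.12 to 0.13.

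In the lipid kinase complex, which marks the forming membrane with phosphatidylinositol 3-phosphate, no subunit passed 2-fold. The catalytic subunit gene Pik3c3 (Vps34) was at 8.52 on the array labelled Mof null, against 8.03 on that labelled wild type, a difference of 0.49. Its membrane anchor Pik3r4 differed by 0.38 (10.06 Mof null, 9.68 wild type) and Atg14, which directs the complex to autophagosomes, by 0.22. Becn1, the scaffold of the complex, was at 10.40 (Mof null) and 10.80 (wild type), a difference of -0.40, and Uvrag, the alternative subunit for endosomes, differed by -0.26. Catalytic subunit, anchor and Atg14 were thus above 0 as deposited, and Becn1 and Uvrag below it. Relative to the pluripotency markers all of them lay below 0, as must any gene with a difference under 0.59.

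The lipid made by this complex is read by the Wipi proteins, and there the paralogues differed. Wipi1 was at 8.62 on the array labelled Mof null and 9.74 on that labelled wild type, 2.17-fold lower. Of its 6 expressed probe sets 5 were at least 2-fold lower, and all lay between -1.45 and -0.24. Wipi2, which recruits Atg16l1, was at 9.55 (Mof null) and 9.63 (wild type), and its 3 expressed probe sets ran from -0.09 to 0.44, so its direction depends on the probe set.

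None of the 8 genes of the conjugation system, which attaches Atg8 proteins to lipid, passed 2-fold. Atg4a, a protease that trims Atg8 proteins, had the largest difference, -0.70, with 7.72 on the array labelled Mof null and 8.41 on that labelled wild type, while its paralogue Atg4b differed by 0.33 (8.71 Mof null, 8.38 wild type). The activating enzyme Atg7 was at 7.44 (Mof null) and 7.84 (wild type), and its 3 expressed probe sets lay between -0.55 and -0.11. Atg3, the enzyme that hands Atg8 proteins to lipid, differed by -0.47 (11.07 Mof null, 11.54 wild type), and Atg10, which serves Atg12 in the same way, by -0.11. Atg5 was higher on all 3 of its probe sets, by 0.40 to 0.66, with 9.31 on the array labelled Mof null and 8.91 on that labelled wild type. Its partners Atg12 and Atg16l1 differed by -0.12 and -0.05, and a second probe set of Atg12 differed by 0.20.

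The Atg8 family, the small ubiquitin-like proteins that coat the autophagosome and hold cargo receptors, was the group of the machinery with the lowest median, -0.60 over 5 genes. Gabarapl1 was at 9.68 on the array labelled Mof null and 10.91 on that labelled wild type, 2.35-fold lower on probe set 1416419_s_at, and its other probe set differed by -1.45. Gabarap was at 11.10 (Mof null) and 12.20 (wild type) on its single probe set 1416937_at, 2.13-fold lower. Gabarapl2, the third of this subfamily, was at 12.02 (Mof null) and 11.92 (wild type), a difference of 0.10 that turned below 0 after centring on the median gene and after correction of a trend with level. In the LC3 subfamily Map1lc3a was at 10.97 (Mof null) and 11.58 (wild type), with probe sets at -0.60 and -0.57, and Map1lc3b at 11.50 (Mof null) and 11.80 (wild type), with probe sets from -0.83 to -0.30. Both LC3 genes were thus lower by less than 2-fold, and Gabarapl2 alone among the 5 lay above 0.

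Cargo receptors link ubiquitin-marked material to Atg8 proteins. Sqstm1 (p62) was at 10.65 on the array labelled Mof null and 11.65 on that labelled wild type, and its difference of -0.997 lay just short of 2-fold. Nbr1 was at 11.42 (Mof null) and 11.35 (wild type), and its difference of 0.07 turned below 0 under the same centring and trend correction as that of Gabarapl2. A wider list of 8 expressed genes, further cargo receptors and the kinase Pink1, held no member. It had 6 genes below 0 and 2 at least 2-fold higher (25%, against 5.09% of all expressed genes). Those were Bnip3, a hypoxia-induced mitophagy receptor, at 11.09 (Mof null) and 8.92 (wild type), 4.51-fold higher, and Retreg1, a receptor of the endoplasmic reticulum, at 10.32 (Mof null) and 8.84 (wild type), 2.78-fold higher on the brighter of its probe sets.

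**Figure D2:**
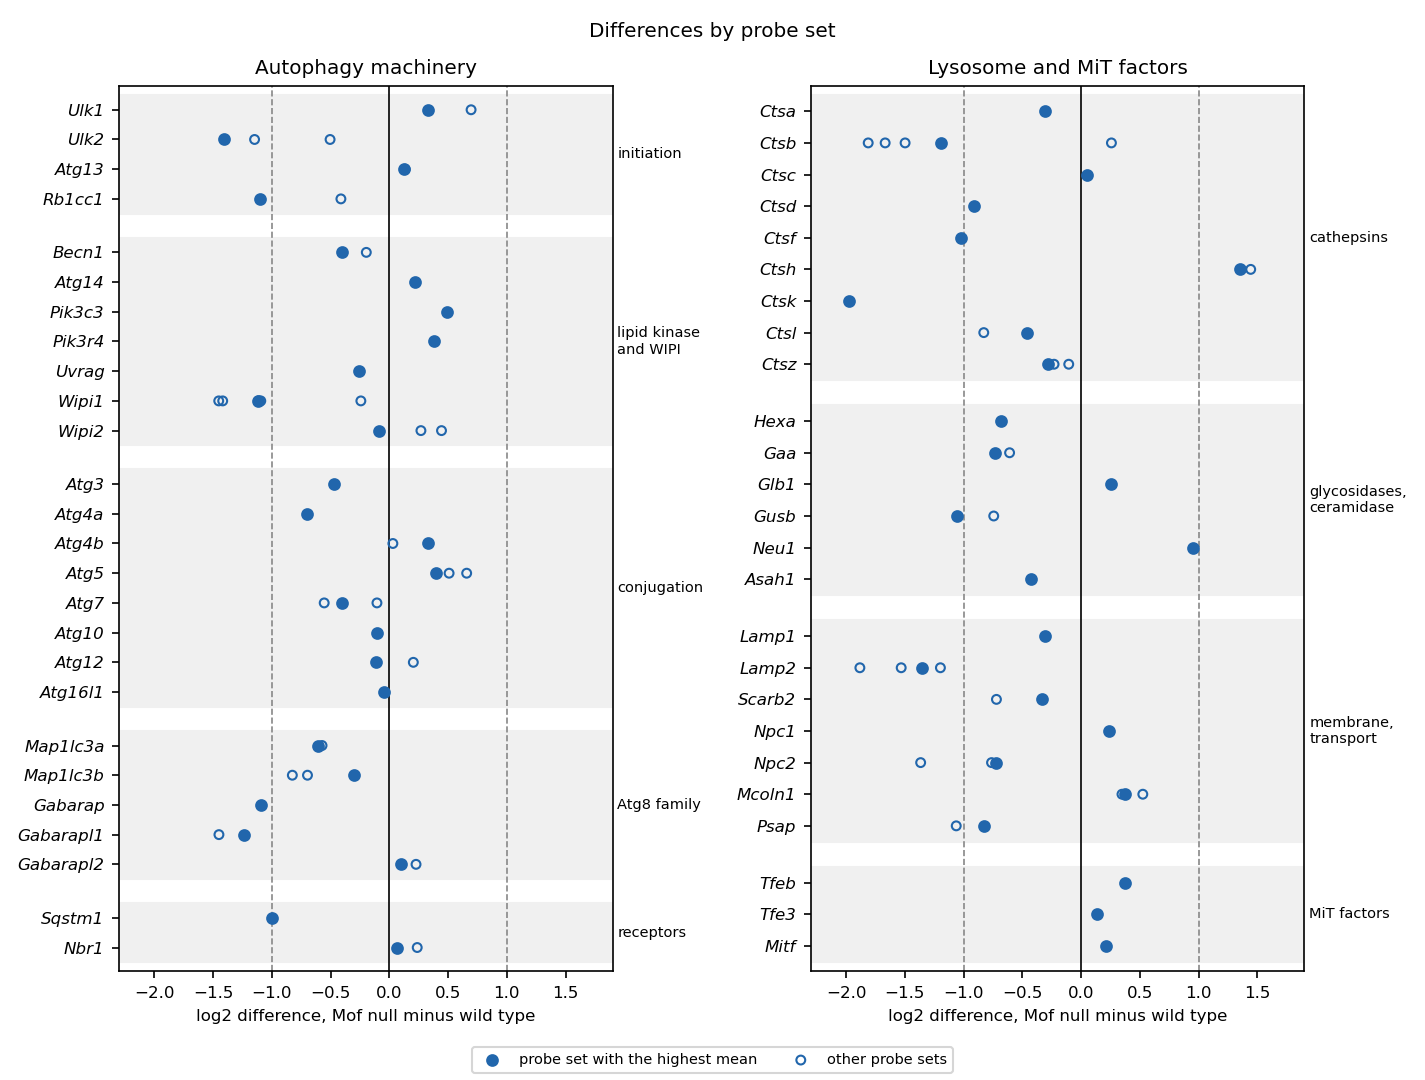
Log2 difference, Mof null minus wild type (x axis), of every expressed probe set of the members, with the brightest probe set filled and the others open; dashed lines mark 2-fold. The probe sets of Lamp2 all lie beyond 2-fold to the left and those of Ctsh beyond 2-fold to the right, while those of Ctsb, Wipi2 and Atg12 lie on both sides of 0.

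The differences of the lysosomal enzymes covered a wider range, from -1.98 to 1.35. Past 2-fold were 5 of 15 enzyme genes, 4 lower (26.7%) and 1 higher (6.67%), and 11 lay below 0 (73.3%). The shares over all expressed genes were 11.9%, 5.09% and 43%. The median was -0.46, while the fibroblast and macrophage markers had medians of -1.93 and -2.05.

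Among the cathepsins, the lysosomal proteases, 3 of 9 genes were at least 2-fold lower (33.3%, against 11.9% of all expressed genes). Ctsk, the collagen-cleaving cathepsin known from osteoclasts, was at 8.01 on the array labelled Mof null and 9.99 on that labelled wild type, 3.94-fold lower on its single probe set 1450652_at, the largest difference among the members. Ctsb, a cysteine protease, was at 12.02 (Mof null) and 13.21 (wild type), 2.28-fold lower, and 4 of its 5 expressed probe sets lay between -1.81 and -1.19 while 1444987_at differed by 0.26. Ctsf, another cysteine protease, was at 8.04 (Mof null) and 9.06 (wild type), 2.03-fold lower on its 1 expressed probe set and just under 2-fold, at -0.96, after quantile normalization.

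Ctsh was the only member at least 2-fold higher by its brightest probe set. It encodes an aminopeptidase of the cysteine cathepsin group, and it was at 10.45 on the array labelled Mof null and 9.10 on that labelled wild type, 2.55-fold higher on probe set 1418365_at. Its second probe set, 1443814_x_at, was at 9.47 (Mof null) and 8.03 (wild type), a difference of 1.44. The aspartic protease gene Ctsd, at 11.64 (Mof null) and 12.55 (wild type), was lower by 1.88-fold, and Ctsl, a cysteine protease, was lower by 1.37-fold. Ctsa, a carboxypeptidase that also protects sialidase and beta-galactosidase, differed by -0.31, the carboxypeptidase Ctsz by -0.28 and the dipeptidase Ctsc by 0.05, the last turning below 0 under centring and trend correction.

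The glycosidases also split. Gusb, beta-glucuronidase, was at 8.89 on the array labelled Mof null and 9.95 on that labelled wild type, 2.08-fold lower, with a second probe set at -0.74 and a mean over both under 2-fold. Neu1, the lysosomal sialidase, was at 8.97 (Mof null) and 8.01 (wild type), 1.94-fold higher and just short of the 2-fold rule. The glycogen-degrading enzyme Gaa differed by -0.73 (9.04 Mof null, 9.77 wild type) and Hexa, a subunit of beta-hexosaminidase, by -0.68 (11.19 Mof null, 11.87 wild type). Beta-galactosidase, Glb1, was on the side of Neu1 with a difference of 0.25, and the acid ceramidase Asah1 differed by -0.42. Neu1, Glb1 and Ctsa, whose proteins form a complex in the lysosome, thus differed by 0.96, 0.25 and -0.31.

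A longer list of hydrolases outside the set also had more lower than higher genes. Past 2-fold were 9 of 26 expressed genes, 8 lower (30.8%) and 1 higher (3.85%), and 21 lay below 0 (80.8%), with a median of -0.69. The shares over all expressed genes were 11.9%, 5.09% and 43%. Ctse, 1 of the 8, reached the expression level only on the array labelled wild type. The largest differences were those of Ctso, at 7.08 on the array labelled Mof null and 9.44 on that labelled wild type (5.14-fold lower), and of Ctss, a protease of antigen-presenting cells, at 9.65 (Mof null) and 11.79 (wild type), 4.41-fold lower. Arsb, a sulfatase of glycosaminoglycans, was 3.88-fold lower. Fibroblast and macrophage markers had medians of -1.93 and -2.05, and the part of such cells in these values was not tested.

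**Figure D3:**
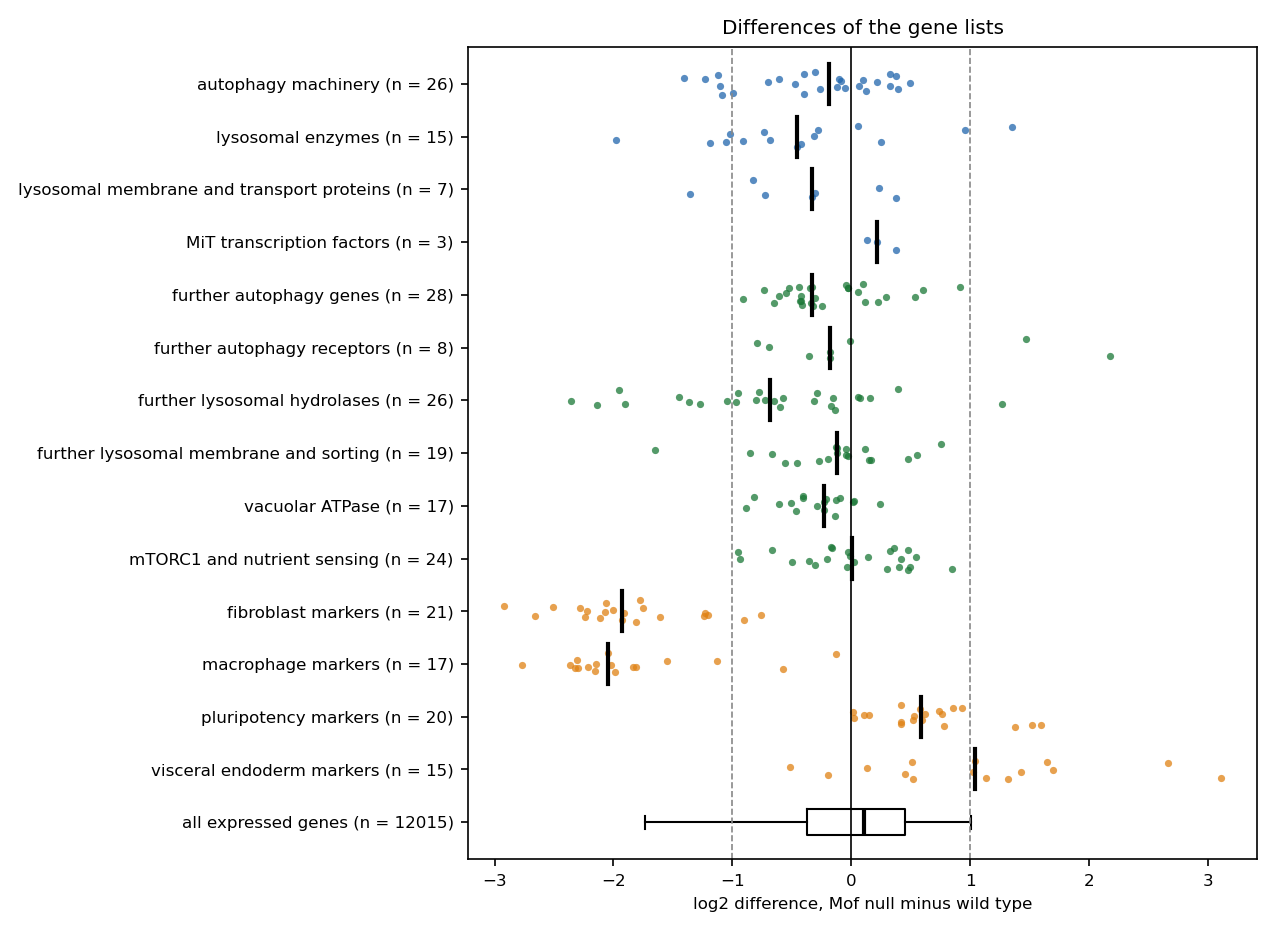
Log2 difference, Mof null minus wild type (x axis), of each expressed gene of the members' groups (blue), further pathway lists (green) and cell type markers (orange), with a bar at each list's median; the box spans percentiles 25 to 75 and its whiskers percentiles 5 to 95 of 12015 expressed genes. Medians run from -0.69 to 0.22 among members and pathway lists, against -1.93 and -2.05 in fibroblast and macrophage markers and 0.59 in pluripotency markers.

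Of 7 lysosomal membrane and transport genes 1 was at least 2-fold lower (14.3%, near the 11.9% of all expressed genes) and none was higher by that much. Below 0 lay 5 of the 7 (71.4%, against 43%), and the median was -0.33. Lamp1 and Lamp2 are the major glycoproteins of the lysosome membrane, and they differed in size of change. Lamp2 was at 10.53 on the array labelled Mof null and 11.88 on that labelled wild type, 2.55-fold lower on probe set 1428094_at, and its 4 probe sets all lay between -1.88 and -1.20. Lamp1 was at 12.33 (Mof null) and 12.64 (wild type), 1.23-fold lower on its single probe set. The bases before their start sites are shown for this pair, chosen after its values were seen for like roles and unlike values. A link of the sequences to the values was not tested. Both stretches are RefSeq sequence of build GRCm38.p6. Capitals mark the E-box core CACGTG, which stands 4 times before Lamp1 and not before Lamp2.
Lamp1, plus strand, chr8:13158911-13159160: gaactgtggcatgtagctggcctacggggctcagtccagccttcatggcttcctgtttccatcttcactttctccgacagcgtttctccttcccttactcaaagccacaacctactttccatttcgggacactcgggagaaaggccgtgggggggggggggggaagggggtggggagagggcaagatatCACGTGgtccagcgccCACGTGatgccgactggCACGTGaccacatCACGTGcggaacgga
Lamp2, minus strand, chrX:38456461-38456710: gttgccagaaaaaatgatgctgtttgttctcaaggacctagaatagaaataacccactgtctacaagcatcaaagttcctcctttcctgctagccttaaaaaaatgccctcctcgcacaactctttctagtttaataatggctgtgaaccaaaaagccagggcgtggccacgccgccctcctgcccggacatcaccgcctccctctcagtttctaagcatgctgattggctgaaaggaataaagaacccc

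The cholesterol transporters that work in sequence differed in sign. Npc2, which carries cholesterol inside the lysosome, was at 12.43 on the array labelled Mof null and 13.16 on that labelled wild type, a difference of -0.73, and 1 of its 3 expressed probe sets passed 2-fold at -1.37. Npc1, the membrane protein that takes cholesterol over, was at 9.17 (Mof null) and 8.93 (wild type), a difference of 0.24. Psap, the precursor of the saposins that help glycolipid hydrolases, differed by -0.82 (11.68 Mof null, 12.51 wild type), with a second probe set at -1.06. Scarb2 (LIMP-2), the carrier of glucocerebrosidase, differed by -0.33 and -0.72 on its probe sets. Mcoln1, the calcium channel of the lysosome, lay above 0 on all 3 probe sets as deposited, between 0.35 and 0.53.

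The MiT factors, whose targets include many of these genes, were all slightly higher. Tfeb was at 8.18 on the array labelled Mof null and 7.80 on that labelled wild type, Tfe3 at 9.57 (Mof null) and 9.43 (wild type), and Mitf at 8.47 (Mof null) and 8.25 (wild type). Their differences of 0.37, 0.13 and 0.22 stayed above 0 under centring, trend correction and quantile normalization. They turned below 0 relative to the pluripotency markers, as any difference between 0 and 0.59 does. Tfe3 was left at 0.03 by centring and 0.01 by trend correction, so it hardly differed from the median gene. Each factor had 1 expressed probe set. Their location in the cell, which controls them, is not seen in RNA.

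The E-box core was looked up near the start sites of the members because the MiT factors bind it. RefSeq windows of 250 bases before and 50 after the start were held for 41 of the 51 members. CACGTG, which reads the same on both strands, was in a window of 12 of the 41 (29.3%) and in 8.09% of the 27025 genes with a window. Those 27025 include genes not measured or not expressed here, while all members were expressed, so the sets are not alike. The longer TCACGTGA, which contains it, was in 4 of the 41 (9.76%), against 1.12% of all genes, and its extension by G in front and C behind was in 0 of 41, against 0.370%. The 4 genes with the longer match are shown with Ctsf, the 1 of the 12 that passed 2-fold, and Atg5, the member with the highest difference among the 12; capitals mark CACGTG, and the build is GRCm38.p6.
Atg3, plus strand, chr16:45158746-45158775: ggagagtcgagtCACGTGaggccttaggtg
Atg5, plus strand, chr10:44268313-44268342: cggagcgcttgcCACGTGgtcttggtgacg
Ctsa, plus strand, chr2:164833749-164833778: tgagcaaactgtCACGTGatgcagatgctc
Ctsd, minus strand, chr7:142387908-142387937: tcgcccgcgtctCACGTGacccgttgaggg
Ctsf, plus strand, chr19:4855074-4855103: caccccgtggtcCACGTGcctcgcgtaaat
Mcoln1, plus strand, chr8:3500462-3500491: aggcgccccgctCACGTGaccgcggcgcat

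Members with and without the core lay in overlapping ranges. The 12 with it had a median difference of -0.36 and ran from -1.02 to 0.40, with 1 at least 2-fold lower. The 29 without it had a median of -0.28 and ran from -1.98 to 0.96, with 7 at least 2-fold lower. The share over all expressed genes, with or without a window, was 11.9%. Rb1cc1, Ctsb and Ctsh, which also passed 2-fold, had no window and are in neither group. Mcoln1 and Ctsd, which both hold the longer match, differed by 0.38 and -0.91. A match describes the letters in the window only, and a window without one says nothing of binding elsewhere.

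**Figure D4:**
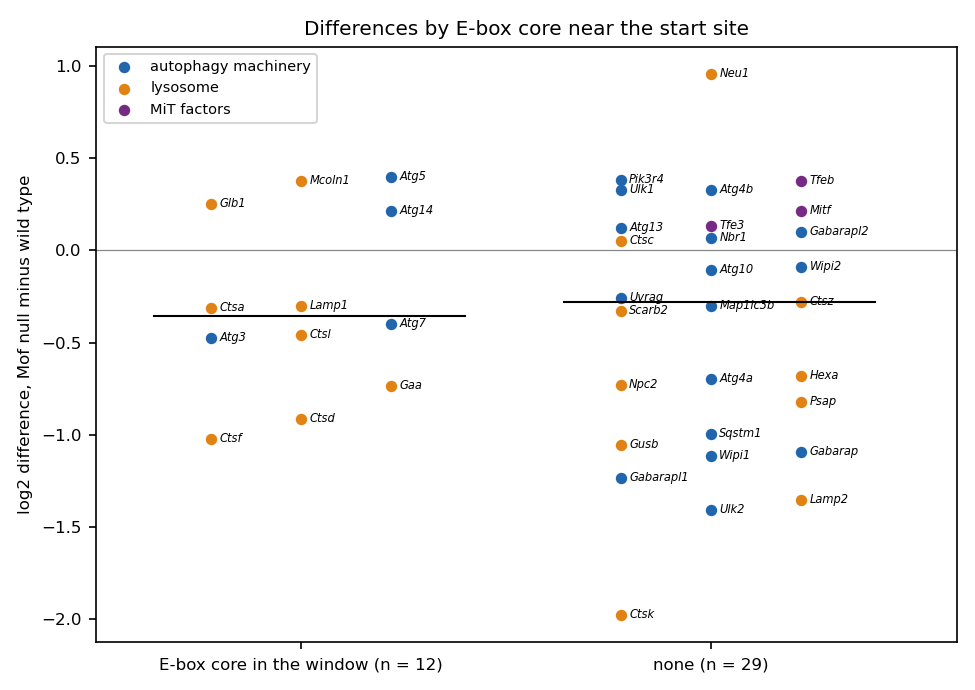
Log2 difference, Mof null minus wild type (y axis), of the 41 members with a RefSeq promoter window, split by an E-box core in the window (12 genes) or none (29 genes), coloured by group, with a line at each median; the horizontal spread of points has no meaning. The medians of -0.36 and -0.28 lie close together, and Ctsk, Lamp2 and Ulk2 stand in the column without the core.

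The rest of the autophagy and lysosome pathway had few genes past 2-fold outside the hydrolases. Over all expressed genes 11.9% were at least 2-fold lower, 5.09% higher by as much and 43% below 0. Of 28 further autophagy genes none passed 2-fold by its brightest probe set and 20 lay below 0, with a median of -0.33. Another probe set of Stx17 was past 2-fold, at -1.11. The largest differences among them were 0.91 for the Atg8 protease Atg4d, -0.91 for Trp53inp2, and -0.73 for Vamp8, a membrane fusion protein of the autophagosome-lysosome step. The vacuolar ATPase, the pump that acidifies the lysosome, had 0 of 17 expressed subunits past 2-fold, 14 below 0 and a median of -0.23, with Atp6ap1 at -0.88 and Tcirg1 at -0.82. Of 19 further membrane and sorting genes 1 passed, the macrophage-associated Cd68, at 8.36 on the array labelled Mof null and 10.00 on that labelled wild type (3.13-fold lower). The mTORC1 list, which holds the kinase complex and its nutrient sensors, had 12 of 24 genes below 0, none past 2-fold and a median of 0.004. Its largest differences were those of the Rag GTPase gene Rragc (-0.95), the mTORC1 subunit Akt1s1 (-0.94) and the AMP-activated kinase subunit Prkaa2 (0.85). Another probe set of Prkaa2 was past 2-fold, at 1.59.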

How the data were processed

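Total RNA of each culture was labelled with biotin and hybridised to 1 array. The table the authors deposited gives a log2 value for each of 45101 probe sets and each array. RMA, the affy package and R 2.10.0 are named in the submitters' processing notes. The log2 scale was read from the values. Sorted by size, the columns differed nowhere by more than 0.13, so a change of most transcripts in 1 direction cannot be seen. Detection calls were not used here, and the number of arrays, 1 per genotype, limits the precision.

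Names came from the platform annotation, in which 34958 probe sets name 1 gene symbol, and 34945 of these were used, with 1 gene ID and no array controls. Each gene was represented by its brightest probe set, judged by the mean of its values. Every expressed gene entered the background counts, and no test was run. Probe sets of a gene differed with a pooled SD of 0.33 in 5362 genes, a spread that holds no variation between cultures. The named genes are all matched members and up to 3 genes with the largest difference of each pathway list. The members and lists were chosen with earlier results of these data known. Promoter windows came from RefSeq, build GRCm38.p6, matched by gene ID. The counting was tested on simulated data. Python 3.11.15, numpy 2.4.6, pandas 2.3.3, statsmodels 0.14.6 and matplotlib 3.10.9 were used. Alternatives covered the choice of probe sets, the level filter, centring, a lowess correction with span 0.3, quantile normalization, scaling to the pluripotency markers and the fold threshold.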

Additional observations from a re-analysis of the deposited data

How the results depend on the processing

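Counts and medians of the 3 gene groups gave 69 values that moved little or not at all and 18 that moved, and no median changed sign. Moving little meant a median shift under the pooled probe set SD of 0.33, or a count within 1.5-fold. That shift is larger in size than the machinery median of -0.19. Dropping the level filter could change nothing, since all members were expressed. Some of the 69 were thus fixed in advance, and their number does not measure stability. Relative to the pluripotency markers, which shifts the median expressed gene to -0.49, the medians became -0.78 (machinery), -1.05 (enzymes) and -0.92 (membrane and transport), with 9, 9 and 3 genes at least 2-fold lower and 0 enzymes higher. In that scaling 0.59 is taken from every gene, so all genes between 0 and 0.59 turn and none below 0 can. Of the 18 members above 0, 16 turned below it, and Ctsh no longer passed 2-fold. With the mean of all probe sets, 3 machinery genes and 2 enzymes were at least 2-fold lower, and 6 of all members, against 10. Those lost were Ulk2, Rb1cc1, Ctsf and Gusb. That mean takes in probe sets under the expression level, which Ulk2, Rb1cc1 and Ctsf hold and Gusb does not. Quantile normalization gave 2 enzymes at least 2-fold higher, Neu1 joining Ctsh, took Ctsf under 2-fold and Sqstm1 past it. At 1.5-fold, 8, 7 and 3 genes were lower and 2 enzymes higher, with shares of 19.2% lower and 17.3% higher over all expressed genes. At 4-fold 0 were lower in each group and 0 enzymes higher. Centring and trend correction each turned 3 members below 0 and gave 12 at least 2-fold lower, with Ctsd and Sqstm1 added. Apart from 1.5-fold, the share over all expressed genes was not computed under these alternatives. Their counts thus have no reference and say nothing particular to the members. No paired analysis was possible because each genotype has 1 array, and for the same reason no array could be left out.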

Other observations

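Some paralogous pairs of the set differed in side or size on this pair of arrays, and those listed first were chosen for differing after their values were seen, with no test. Ulk1 and Ulk2 differed by 0.33 and -1.41, Wipi2 and Wipi1 by -0.09 and -1.12, Atg4b and Atg4a by 0.33 and -0.70, Gabarapl2 and Gabarapl1 by 0.10 and -1.23, and Lamp1 and Lamp2 by -0.30 and -1.35. Other paralogues were closer, with Gabarap and Gabarapl1 at -1.09 and -1.23, Map1lc3a and Map1lc3b at -0.60 and -0.30, and Tfeb, Tfe3 and Mitf at 0.37, 0.13 and 0.22. The pooled SD between probe sets of a gene was 0.33.

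Of the 117 probe sets of the members 95 were expressed, of which 24 were lower and 2 higher by 2-fold or more under the Mof null label. Probe sets of a gene are not separate members, and Wipi1 gave 5 of the 24, Ctsb 4 and Lamp2 4. The share over all expressed probe sets was not computed, so these counts have no reference. Several expressed probe sets were held for 8 of the members past 2-fold, and for 3 of these all were past it, namely Gabarapl1, Ctsh and Lamp2. Npc2 and Psap were not counted as past 2-fold but each had 1 probe set that was, at -1.37 and -1.06.

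Acp5, an acid phosphatase of osteoclasts and macrophages, was the 1 hydrolase outside the set that was at least 2-fold higher, with a difference of 1.27, while Cd68 differed by -1.65 and the macrophage marker list had a median of -2.05. It was chosen after its value was seen.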
